A study of Mus musculus with 12 samples.

Results

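The PYHIN genes encode a family of mouse DNA sensors, and 6 of them, Ifi203, Ifi204, Ifi205, Mndal, Aim2 and Pyhin1, were followed here across the lungs of mice given bacterial lipopolysaccharide, a tobacco carcinogen, or both. The members were chosen by gene symbol, through the RefSeq transcript that each array probe was designed for. The family was proposed with earlier results of these arrays in view, in which Ifi205 stood higher after the combined treatment than after the carcinogen alone, so the levels and differences of the members are a description of these arrays and not an independent test. Of the 6 named members, 4 had a matched probe, among 17009 named genes on the array, with 9 of 41137 probes, and 3 (Ifi204, Ifi205 and Pyhin1) passed the filter on dim probes and were among the 21853 genes and unnamed probes tested. Ifi203 and Mndal had no probe matched through the RefSeq table used for naming. Only 24355 of the 41137 probes were named through that table, so the array may still hold a probe for either gene. Pyhin1 carries the symbol Ifi209 in that table.

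Most proteins of the PYHIN family join a pyrin domain, which binds other pyrin domains, to HIN domains, which bind double-stranded DNA. Aim2 senses DNA in the cytosol and assembles an inflammasome through the adaptor encoded by Pycard, whereas Ifi204 has been tied to the STING route to type I interferon. The mouse genes lie side by side on chromosome 1, and most of them are induced by interferon and are expressed in myeloid and lymphoid cells.

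Total RNA from whole lung of FVB/N mice (FVB/NJ in the strain label) was hybridised to 1-colour Agilent arrays, with 3 arrays in each of 4 groups. The mice, labelled female, were 7 weeks old at the start, and lungs were taken 1 week after their final treatment. The PBS group received phosphate-buffered saline weekly for 16 weeks. The LPS group received lipopolysaccharide, the outer membrane component of Gram-negative bacteria, in weekly doses of 5 ug, instilled into the nose, over 16 weeks. The NNK group received 4-(methylnitrosamino)-1-(3-pyridyl)-1-butanone, a nitrosamine of tobacco smoke, by intraperitoneal injections of 3 mg in the opening 4 weeks, on a schedule that one label calls biweekly and another semi-weekly. The LPS/NNK group received both. What the NNK mice received as vehicle, if any, is not given in the sources used here.

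The arrays differed in ways the groups do not name. The 75th percentile of brightness was 699 to 984 on the PBS arrays and 183 to 510 on the treated arrays, with 55.6% to 73.1% of spots well above background, and PBS arrays correlated with treated arrays at 0.878 to 0.933 against 0.942 to 0.990 among treated arrays. PBS 1 and PBS 2 went against the labelled sex: the Y-linked genes Ddx3y, Eif2s3y, Kdm5d and Uty were well above background there and on no other array, and Xist was above background on all arrays but these, so each comparison of the PYHIN members with PBS is also given with PBS 3 as the only PBS array. Of 8 slides, slide 5 held NNK 2 with PBS 3, slides 6 and 7 each held an LPS/NNK with an NNK array, slide 8 held LPS/NNK 6 with PBS 1, and each LPS array and PBS 2 lay alone on a slide. PBS 2 was also scanned on another day than the other arrays. Markers of lung epithelium were above background on every array (8 of 8). The labels number the arrays without naming separate mice, so p-values measure the spread between these arrays, which may be technical.

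The genes stand in this order along mouse chromosome 1 in the RefSeq table: Aim2, Ifi206, Ifi214, Ifi213, Pyhin1, Ifi208, Ifi207, Ifi204, the pseudogene Ifi203-ps, Mndal, Ifi211, Ifi203, Ifi202b and Ifi205. Of these 14 genes, 5 had a matched probe, the fifth being Ifi202b, a family gene outside the 6 members that encodes HIN domains without a pyrin domain. The promoters below, from 250 bases before to 50 after the start site, are shown because the genes move together across the treated groups while Aim2 was not measurable. They are RefSeq sequences on GRCm38.p6, 5′ to 3′ on the strand of the gene, with matches to an interferon motif in capitals. They were found for 3 of the 4 members with a probe (none for Ifi204) and for Ifi202b.

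Ifi205, chr1:174031706-174032005, minus strand: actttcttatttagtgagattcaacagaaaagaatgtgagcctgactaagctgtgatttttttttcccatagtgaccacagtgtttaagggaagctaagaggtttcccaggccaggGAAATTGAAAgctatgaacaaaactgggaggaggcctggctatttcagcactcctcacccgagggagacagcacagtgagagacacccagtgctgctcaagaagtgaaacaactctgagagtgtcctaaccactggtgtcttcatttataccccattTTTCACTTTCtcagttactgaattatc

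Pyhin1, chr1:173630609-173630908, plus strand: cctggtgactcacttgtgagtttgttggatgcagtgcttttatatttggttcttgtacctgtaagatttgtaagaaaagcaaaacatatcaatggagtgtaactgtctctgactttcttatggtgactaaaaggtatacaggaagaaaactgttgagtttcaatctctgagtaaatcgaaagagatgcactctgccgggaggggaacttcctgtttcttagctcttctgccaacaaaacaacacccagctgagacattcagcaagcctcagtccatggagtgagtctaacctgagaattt

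Ifi202b, chr1:173982795-173983094, minus strand: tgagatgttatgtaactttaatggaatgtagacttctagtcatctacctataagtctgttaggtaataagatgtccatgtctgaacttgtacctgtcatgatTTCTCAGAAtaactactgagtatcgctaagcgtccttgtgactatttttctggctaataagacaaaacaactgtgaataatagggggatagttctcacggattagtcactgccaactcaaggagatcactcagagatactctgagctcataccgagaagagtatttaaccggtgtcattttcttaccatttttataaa

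Aim2, chr1:173420354-173420653, plus strand: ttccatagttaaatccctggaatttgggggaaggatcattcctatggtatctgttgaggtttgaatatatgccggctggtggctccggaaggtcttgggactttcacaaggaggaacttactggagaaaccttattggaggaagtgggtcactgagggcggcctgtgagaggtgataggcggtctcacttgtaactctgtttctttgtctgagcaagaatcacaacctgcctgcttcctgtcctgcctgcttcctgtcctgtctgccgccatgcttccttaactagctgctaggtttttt

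The motifs searched on both strands were the core of the interferon-stimulated response element (GAAA, any 2 bases, then GAAA), bound by interferon regulatory factors, and the gamma-activated site, TTCNNNGAA, which serves the response to interferon gamma. The Ifi205 promoter held 2 matches to the response element, GAAATTGAAA with its first base at -134 and TTTCACTTTC at 24 from the start site, against 3.44% of 32851 RefSeq promoters of this length with any match. The Ifi202b promoter held 1 match to the gamma-activated site, TTCTCAGAA at -148, which 8.30% of those promoters hold. The Pyhin1 and Aim2 windows held neither string. A match describes letters only and is not a measured site.

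Among the treated groups the 3 tested members had one order of group means: all were lowest after NNK alone and highest after LPS/NNK. Levels below are log2 signals minus the 75th percentile of the array, so that a negative value is a signal under that percentile, and they are compared only between arrays for 1 probe. Ifi205 measured 0.83, 0.97 and 1.33 on PBS 1, 2 and 3, 0.11, 0.84 and 0.34 on LPS 1, 5 and 6, -0.98, -0.64 and -0.69 on NNK 2, 3 and 5, and 0.96, 1.86 and 2.13 on LPS/NNK 2, 3 and 6. The NNK arrays lay below all others, LPS/NNK 2 fell inside the PBS range, and the other LPS/NNK arrays lay above every PBS array. Ifi205 means were 1.65 ± 0.61 (SD, n = 3) for LPS/NNK, 1.04 ± 0.26 for PBS, 0.43 ± 0.37 for LPS and -0.77 ± 0.18 for NNK. In that order the first step (adjusted p = 0.115) and the second (adjusted p = 0.110) did not pass the threshold, and the step from LPS to NNK did (adjusted p = 0.0367, limma with Benjamini-Hochberg adjustment over all 21853 items, threshold 0.05). The first and last steps use arrays of the comparison in which Ifi205 was noticed, so their p-values are a description.

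Pyhin1, one of the interferon-inducible genes of the cluster, measured -0.35, -0.42 and 0.01 on the PBS arrays, -0.62, 0.06 and -0.76 on the LPS arrays, -1.47, -1.28 and -1.20 on the NNK arrays, and 0.22, 0.18 and 0.24 on the LPS/NNK arrays, in the order of arrays given for Ifi205. Every LPS/NNK array lay above every other array and every NNK array below every other, while the PBS and LPS arrays overlapped. The group means were 0.21 ± 0.03 (SD, n = 3) for LPS/NNK, -0.25 ± 0.23 for PBS, -0.44 ± 0.44 for LPS and -1.32 ± 0.14 for NNK. None of the 3 steps in this order passed the threshold (adjusted p = 0.129, 0.551 and 0.0548).

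Ifi204, the mouse gene often set beside human IFI16, differed in where PBS stood on its probe with the highest mean signal, whose values follow. It measured 2.71, 3.13 and 3.20 on the PBS arrays, 1.65, 2.18 and 1.69 on the LPS arrays, 1.59, 1.85 and 1.56 on the NNK arrays and 2.18, 2.68 and 2.68 on the LPS/NNK arrays. All PBS arrays lay above all treated arrays, and the LPS and NNK arrays overlapped. The means were 3.02 ± 0.26 (SD, n = 3) for PBS, 2.51 ± 0.29 for LPS/NNK, 1.84 ± 0.30 for LPS and 1.66 ± 0.16 for NNK, and no step in this order passed the threshold (adjusted p = 0.105, 0.121 and 0.772). A second Ifi204 probe also had all PBS arrays above all treated arrays. The third did not: its PBS arrays (-2.56, -2.61 and -2.13) lay below every LPS/NNK array (-1.65, -1.53 and -1.60).

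Ifi202b measured 1.22, -0.35 and 0.94 on the PBS arrays, 0.28, 1.30 and 0.52 on the LPS arrays, -1.0, -0.95 and -0.96 on the NNK arrays and 1.25, 1.55 and 1.18 on the LPS/NNK arrays. Here too the NNK arrays lay below all others, and PBS 2 stood apart from the other PBS arrays. Aim2 was well above background on PBS 2 alone, at -5.62. Its signals on the other arrays, from -6.74 to -5.40, were not well above background, so no difference or bound between groups can be given for the inflammasome sensor itself.

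**Figure D1:**
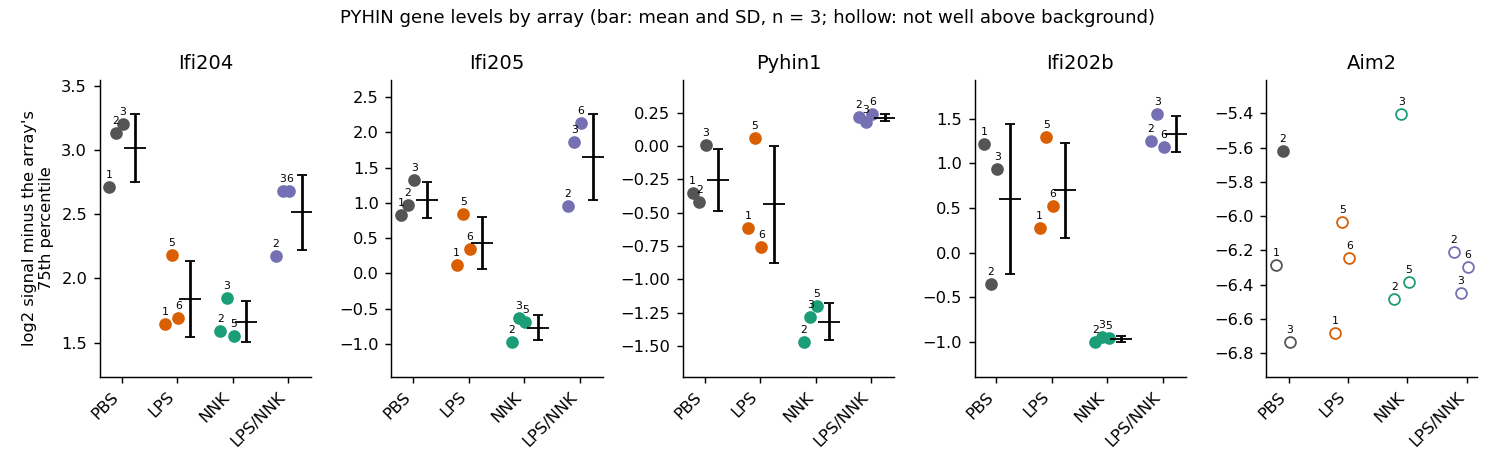
Log2 signal minus the 75th percentile of the array (y axis, a separate scale for each gene) on each of the 12 arrays, by treatment group (x axis), for Ifi204, Ifi205, Pyhin1, Ifi202b and Aim2. Points are arrays with their replicate number, bars are the group mean and SD (n = 3, not drawn for Aim2), and hollow points were not well above background. NNK arrays are lowest for Ifi205, Pyhin1 and Ifi202b, and Aim2 has 1 filled point.

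NNK against PBS asks what the carcinogen alone left in the lung. Its NNK arrays also entered the comparison in which Ifi205 was noticed. The p-values of Ifi205 here are therefore a description and not a test. All 3 tested members were lower after NNK, where 23.7% of all items were called lower and 27.8% higher: Ifi205 fell by 1.81 on the log2 scale (SE 0.31, adjusted p = 0.000655, 3.50-fold), Ifi204 by 1.35 (SE 0.25, adjusted p = 0.000984) and Pyhin1 by 1.07 (SE 0.25, adjusted p = 0.00383). The groups did not overlap for any of the 3, where 32.4% of items were lower without overlap. Ifi202b fell by 1.57 (SE 0.37, adjusted p = 0.00398).

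Every one of the 8 probes of these members fell in this comparison, by 0.90 to 1.93. With PBS 3 as the only PBS array, which assumes that a lone array varies like the other groups, Ifi205 fell by 2.10 (adjusted p = 0.0165), Ifi204 by 1.54 (adjusted p = 0.0212), Pyhin1 by 1.33 (adjusted p = 0.0344) and Ifi202b by 1.91 (adjusted p = 0.0151). On slide 5, NNK 2 minus PBS 3 was -2.30 for Ifi205, -1.61 for Ifi204, -1.48 for Pyhin1 and -1.95 for Ifi202b. The call of Pyhin1 was lost after normexp background correction (-0.20, adjusted p = 0.644), and the treated arrays were also the dimmer ones, a difference whose part was not tested.

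In LPS against PBS fewer members were called, and probes of the same gene disagreed. Ifi204 fell by 1.18 (SE 0.25, adjusted p = 0.00170) and was the 1 member of 3 called, where 30% of all items were called lower and 26.1% higher. Ifi205 (-0.61, SE 0.31, adjusted p = 0.110), Pyhin1 (-0.18, SE 0.25, adjusted p = 0.551) and Ifi202b (0.10, SE 0.37, adjusted p = 0.838) did not pass. The 3 probes of Ifi204 gave -1.18, -1.63 and -0.10, those of Ifi205 -0.61 and 0.01, and those of Pyhin1 -0.18, -1.25 and -1.25, so that 7 of 8 probes were below 0 and 4 of them past the threshold. The third Pyhin1 probe was above background on 2 of 3 LPS and 1 of 3 NNK arrays. With PBS 3 as the only PBS array the differences were -1.36 for Ifi204, which kept its call, -0.90 for Ifi205, -0.45 for Pyhin1 and, with its sign turned, -0.24 for Ifi202b (adjusted p = 0.678). No slide held an LPS array with another array.

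After both agents no member was called different from PBS. In LPS/NNK against PBS none of the 3 members passed limma's threshold at an adjusted p of 0.05, where 27.9% of items were called higher and 27.1% lower: Ifi205 differed by 0.61 (SE 0.31, adjusted p = 0.115), Pyhin1 by 0.47 (SE 0.25, adjusted p = 0.129) and Ifi204 by -0.50 (SE 0.25, adjusted p = 0.105), with 0 of 3 under an unadjusted p of 0.05. Pyhin1 and Ifi204 had no array of one group within the range of the other, as for 30.3% of all items above PBS and 31.6% below. The probes went both ways, from -0.62 to 0.85, with 5 above 0 and 3 below, and 2 of 8 passed the threshold, both higher: a second probe of Ifi205 (0.85) and the third of Ifi204 (0.84). Without LPS/NNK 2, Ifi205 was called at 0.95. Ifi204 was called lower after quantile normalization (-1.10) and cyclic loess normalization (-0.95). With PBS 3 as the only PBS array the differences were 0.32 for Ifi205, 0.20 for Pyhin1 and -0.69 for Ifi204. On slide 8, LPS/NNK 6 minus PBS 1 was 1.30 for Ifi205, 0.59 for Pyhin1, -0.03 for Ifi204 and -0.03 for Ifi202b.

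**Figure D2:**
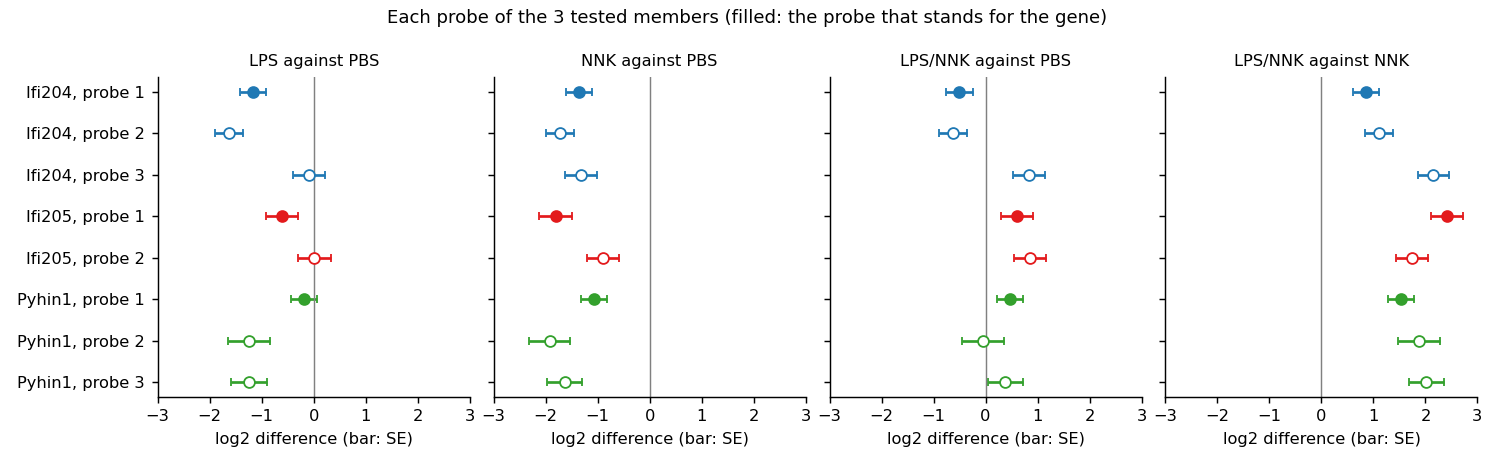
Log2 difference (x axis) with its SE (bars) for each of the 8 probes of Ifi204, Ifi205 and Pyhin1 (y axis) in 4 comparisons of 3 arrays against 3. Filled points are the probes with the highest mean signal, which stand for their gene. All 8 probes lie left of 0 in NNK against PBS and right of 0 in LPS/NNK against NNK, and probes of 1 gene spread apart in LPS against PBS.

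LPS/NNK against NNK asks what repeated LPS added in mice given the carcinogen. This is the comparison in which Ifi205 had been seen to be higher, so the values, and the counts past the threshold, are a description and are given without a p. Ifi205 was 2.41 higher (SE 0.31, 5.33-fold), Pyhin1 1.53 higher (SE 0.25, 2.89-fold) and Ifi204 0.85 higher (SE 0.25, 1.80-fold), and Ifi202b was 2.30 higher (SE 0.37). All 3 members were past the threshold of the fit and had groups that did not overlap, against 7.92% of all items called higher, 9.34% called lower and 15.7% higher without overlap. The 8 probes ran from 0.85 to 2.41, all past the threshold.

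Within slides the differences had the same sign. On slide 6, LPS/NNK 2 minus NNK 3 was 1.59 for Ifi205, 1.5 for Pyhin1, 0.33 for Ifi204 and 2.19 for Ifi202b. On slide 7, LPS/NNK 3 minus NNK 5 was 2.55, 1.38, 1.13 and 2.51 for the same genes. Ifi204 was the least firm of the 3: it lost its call after normexp correction (1.0) and quantile normalization (0.73), without the filter on dim probes or with only the groups compared (0.85 in both), with the slide as a fixed effect (0.90), with PBS 3 as the only PBS array (0.85, with fewer arrays behind the spread), and without NNK 2 (0.81), NNK 3 (0.94), NNK 5 (0.80), LPS/NNK 3 (0.77) or LPS/NNK 6 (0.77). Pyhin1 lost it after normexp correction (0.69), and Ifi205 kept it in every alternative run (1.65 to 2.76).

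Set against LPS alone, LPS/NNK was higher by 1.21 for Ifi205 (SE 0.31, adjusted p = 0.0472), the 1 member called where 2.85% of items were called higher and 1.26% lower. Pyhin1 differed by 0.65 (SE 0.25, adjusted p = 0.132) and Ifi204 by 0.67 (SE 0.25, adjusted p = 0.121). All 8 probes were above 0 and 3 passed the threshold, so which member was called depended on the probe. Besides the first Ifi205 probe, those were the second of Ifi204 (1.01) and the third of Pyhin1 (1.625), which was dim on part of the LPS arrays. The second Ifi205 probe (0.84) did not pass. The Ifi205 call was lost without LPS 1 (1.06), LPS 5 (1.42), LPS 6 (1.17), LPS/NNK 3 (1.11) or LPS/NNK 6 (0.97), and with PBS 3 as the only PBS array, and without LPS/NNK 2 Ifi204 was called as well (0.84). LPS against NNK likewise called 1 member, Ifi205, at 1.20 (SE 0.31, adjusted p = 0.0367), where 2.73% of items were called higher and 3.47% lower, and Ifi202b differed by 1.67 (SE 0.37, adjusted p = 0.0172), a call lost after normexp correction (1.14), with the replicate block (1.60) and without LPS 5 (1.37), NNK 2 (1.65), NNK 3 (1.68) or NNK 5 (1.67). That Ifi205 call was lost without LPS 1 (1.36), LPS 5 (1.0), NNK 2 (1.10), NNK 3 (1.27) or NNK 5 (1.24), and without LPS 6 Pyhin1 was called as well (1.04). In LPS against NNK too all 8 probes were above 0, and 2 passed the threshold: the first of Ifi205 and the third of Ifi204 (1.22). The second Ifi205 probe (0.91) did not pass. LPS 5 had the highest signal of its group for all 3 members and Ifi202b. Both LPS/NNK against LPS and LPS against NNK reuse arrays of the comparison in which Ifi205 was noticed. The p-values and calls of Ifi205 in them are therefore a description and not a test.

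The interaction, the LPS effect in NNK mice minus that in PBS mice, was 3.02 for Ifi205 (SE 0.44), 2.03 for Ifi204 (SE 0.35) and 1.72 for Pyhin1 (SE 0.35) on the log2 scale. All 3 were called, where 20.1% of items were called higher and 18.6% lower, and all 8 probes were above 0, from 1.72 to 3.13 over the 7 probes above background on every array, and at 3.26 for the third Pyhin1 probe, which was above background on part of the LPS and NNK arrays. These values contain LPS/NNK against NNK and are likewise a description. With PBS 3 as the only PBS array the interaction was 3.31, 2.21 and 1.98 in the same order, each still called. After normexp correction none of the 3 was called (2.21, 2.27 and 0.64). The comparisons share arrays, NNK in some and PBS in others, so they do not support one another.

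The inflammasome partners of the family were followed through 12 tested genes of 15 listed. In NNK against PBS 7 were lower and 1 higher (median -0.99, against 0.04 over all items, of which 23.7% were called lower and 27.8% higher). They included Naip5, a sensor of bacterial flagellin, which fell by 1.43 (SE 0.30), the cytokine gene Il18, which fell by 1.25 (SE 0.26), and Casp1, the protease that matures it, which fell by 1.21 (SE 0.28). Ninj1, which drives membrane rupture, rose by 1.85 (SE 0.25). With PBS 3 as the only PBS array the counts were 2 lower and 1 higher, and the count lower was 4 without PBS 1 and 3 without PBS 3, NNK 2 or NNK 3.

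In LPS/NNK against NNK 6 of the 12 inflammasome genes were higher and 0 lower (median 0.99, against -0.06 over all items, with 7.92% of items called higher). Casp1 rose by 1.94 (SE 0.28), from -0.31, -0.15 and -0.02 on the NNK arrays to 1.5, 1.92 and 1.93 on the LPS/NNK arrays. Casp4, the caspase that binds LPS inside the cell, rose by 1.78 (SE 0.41), Naip5 by 1.12 (SE 0.30) and Gsdmd, the pore protein cut by these caspases, by 0.92 (SE 0.27). The count was 1 after normexp correction and without NNK 2, NNK 3 or LPS/NNK 3, and 3 without LPS/NNK 6 or without the filter on dim probes.

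The cGAS-STING genes, a separate route from cytosolic DNA to interferon, moved both ways. Of 14 listed genes 11 were tested: Sting1 and Nlrc3 had no matched probe, and Ifnb1 did not pass the filter on dim probes. Of 11 tested genes 5 were higher and 3 lower in NNK against PBS (median 0.02, with 27.8% and 23.7% of all items called), among them the cyclic dinucleotide carrier Slc19a1 at 1.29 (SE 0.23) and the autophagy adaptor gene Tax1bp1, which fell by 1.25 (SE 0.26). Those counts were 2 higher and 2 lower with PBS 3 as the only PBS array. In LPS/NNK against NNK Enpp1, which degrades the cGAS product, rose by 1.46 (SE 0.29), the ubiquitin ligase gene Trim32 fell by 0.96 (SE 0.29), and the other 9 did not pass. Of 24 other nucleic acid sensors 6 rose in that comparison and 0 fell (median 0.39, with 7.92% of all items called higher and 9.34% lower). Zbp1, a sensor of Z-form nucleic acid, rose by 3.72 (SE 0.57), Unc93b1, which brings Toll-like receptors to endosomes, by 1.92 (SE 0.24), Hmgb2 by 1.92 (SE 0.34) and the helicase gene Dhx9 by 1.11 (SE 0.31). The count of 6 sensors was 3 without NNK 3 or LPS/NNK 3. Without LPS/NNK 2, 4 cGAS-STING genes rose, and the count of 5 higher in NNK against PBS was 2 without PBS 2 and 3 without PBS 1, PBS 3, NNK 2 or NNK 3.

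Of 11 nucleases that remove stray nucleic acid 5 rose in LPS/NNK against NNK and 0 fell (median 0.77), where 7.92% of all items were called higher and 9.34% lower. Dnase1l3, which digests DNA outside cells, rose by 3.70 (SE 0.40) and Trex1, the main DNA exonuclease of the cytosol, by 1.49 (SE 0.26). Both had also risen in NNK against PBS, Dnase1l3 by 2.24 (SE 0.40) and Trex1 by 1.82 (SE 0.26), the comparison in which the PYHIN members fell. The count of 5 was 3 without NNK 2, LPS/NNK 3 or LPS/NNK 6 and 2 without NNK 3.

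Of 17 listed interferons, receptors and signal transducers 14 were tested. Ifnb1, Ifna4 and Ifnl3 did not pass the filter on dim probes, so Ifng was the only interferon tested. Of the 14, 5 rose in LPS/NNK against NNK and 0 fell (median 0.63), beside the same 7.92% and 9.34% of all items. Ifng, interferon gamma, measured -3.98, -3.14 and -3.18 on the NNK arrays and 1.24, 1.83 and 2.30 on the LPS/NNK arrays, a rise of 5.22 (SE 0.43). Irf1 rose by 1.62 (SE 0.26), Irf8 by 1.55 (SE 0.24) and Irf9 by 0.81 (SE 0.24). The groups did not overlap for Ifng or these Irf genes.

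Interferon-induced genes outside the family were counted in each comparison. Of 27 tested genes 13 were lower and 2 higher in NNK against PBS (median -0.91), and 16 were higher and 0 lower in LPS/NNK against NNK (median 1.42). In LPS against NNK 11 were higher and 0 lower (median 1.38), and in LPS against PBS 7 were higher and 4 lower (median 0.46). In LPS/NNK against PBS, where no PYHIN member was called, 14 were higher and 1 lower (median 1.03). There 27.9% of all items were called higher and 27.1% lower. In LPS/NNK against LPS 1 was higher and 0 lower (median 0.58), beside 2.85% and 1.26% of all items. The interaction was called higher for 14 and lower for 0 (median 1.55), beside 20.1% and 18.6%. The shares of all items called higher and lower were 27.8% and 23.7% in NNK against PBS, 7.92% and 9.34% in LPS/NNK against NNK, 2.73% and 3.47% in LPS against NNK, and 26.1% and 30% in LPS against PBS, so that the count in LPS against PBS was near or under the share over all items. The guanylate-binding protein gene Gbp5 rose by 4.14 (SE 0.41) in LPS/NNK against NNK, the immunity-related GTPase genes Iigp1 by 4.00 (SE 0.56) and Irgm1 by 2.68 (SE 0.41), and the immunoproteasome gene Psmb9 by 2.39 (SE 0.37). In NNK against PBS Ifit3 fell by 1.17 (SE 0.27), Ifi47 by 1.63 (SE 0.38), Ifit2 by 1.46 (SE 0.35) and Gbp4 by 2.48 (SE 0.60). With PBS 3 as the only PBS array 9 were lower and 0 higher in NNK against PBS, and 16 were higher in LPS/NNK against NNK. Without NNK 5 the count lower in NNK against PBS was 8.

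**Figure D3:**
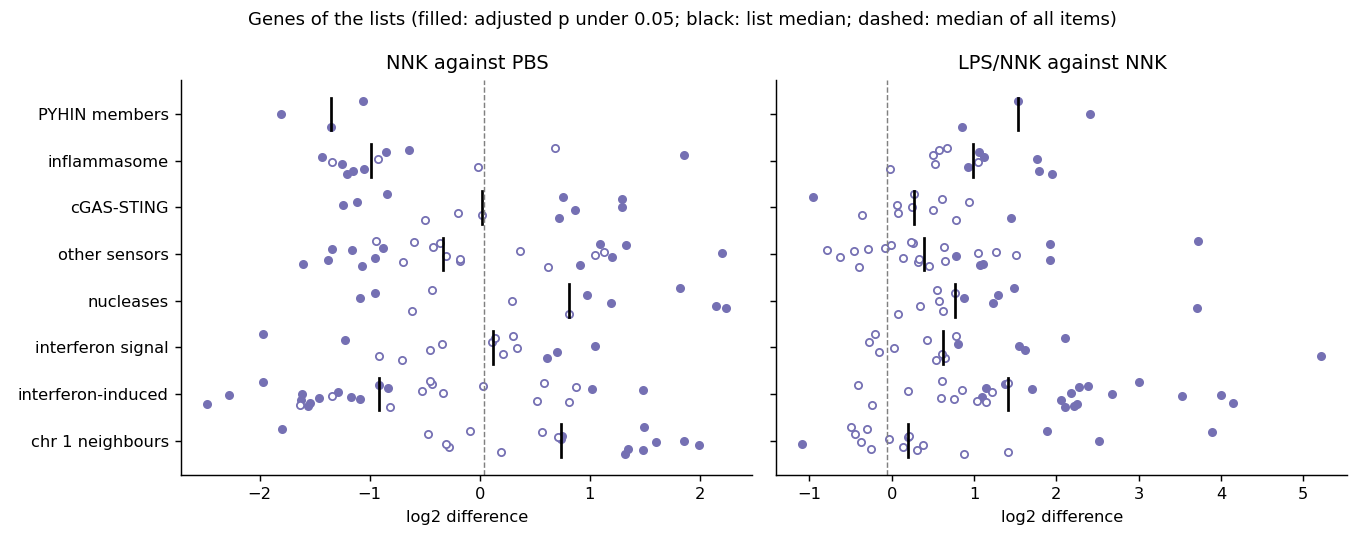
Log2 difference (x axis) of each tested gene in the PYHIN members and 7 gene lists (y axis), with NNK against PBS on the left and LPS/NNK against NNK on the right. Filled points had an adjusted p under 0.05, black bars are list medians and the dashed line is the median over all items. The interferon-induced list has a median of -0.91 in the left panel and 1.42 in the right.

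Genes outside the family on the same stretch of chromosome 1, within 1 Mb of the cluster, were counted beside it. Of 17 tested, 9 were higher in NNK against PBS (median 0.74, with 27.8% of all items called higher), where all 3 PYHIN members fell; the formin gene Fmn2 rose by 2.0 (SE 0.29). The count higher was 3 with PBS 3 as the only PBS array. In LPS/NNK against NNK 3 were higher (median 0.20, with 7.92% of all items called higher). Slamf8, a macrophage surface receptor, rose by 3.89 (SE 0.39), the potassium channel gene Kcnj10 by 2.51 (SE 0.41) and Slamf9 by 1.88 (SE 0.39).

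Cell type markers moved with part of this pattern, and in whole lung fewer cells of a type and less RNA per cell cannot be told apart. The mean log2 signal of 9 measured of 11 listed macrophage and monocyte markers was 1.26 to 1.31 on the NNK arrays and 2.64 to 2.70 on the LPS/NNK arrays, but also 2.31 to 2.40 on the LPS arrays and 0.86 to 1.37 on the PBS arrays. For 7 of 9 T cell markers the ranges were -0.80 to -0.70 for NNK, 0.74 to 1.18 for LPS/NNK, 0.12 to 1.11 for LPS and -1.03 to -0.79 for PBS. B cell markers (6 of 7) ran from -0.59 to -0.30 for NNK and from 0.12 to 0.76 for LPS/NNK, but also from 0.20 to 1.05 for LPS and from -1.22 to -0.17 for PBS. The mean of the 3 PYHIN members was -0.29 to -0.02 for NNK, 1.12 to 1.68 for LPS/NNK, 0.38 to 1.03 for LPS and 1.06 to 1.51 for PBS. The mean of the 3 members was thus higher on the PBS arrays than on all LPS arrays, while that of the macrophage markers was lower. For Ifi205 and Pyhin1 taken singly, the PBS and LPS arrays overlapped. NNK arrays had members below every PBS array with the mean of the macrophage markers inside the PBS range.

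That mean covers markers that went both ways. In NNK against PBS the monocyte chemokine receptor gene Ccr2 fell by 1.77 (SE 0.26), whereas Itgax rose by 1.63 (SE 0.28), C1qa by 1.39 (SE 0.37) and Csf1r by 1.09 (SE 0.32), all 4 without overlap. Ccr2 measured 0.61, 0.30 and -0.12 on the PBS arrays, -0.35, 0.06 and -0.03 on the LPS arrays, -1.83, -1.26 and -1.43 on the NNK arrays and 0.80, 0.91 and 1.26 on the LPS/NNK arrays. As for Ifi205 and Pyhin1, its NNK arrays lay below all others, and Ccr2 rose by 2.49 (SE 0.26) in LPS/NNK against NNK.

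Other marker lists separated the groups less or differently. Neutrophil markers (7 of 8) overlapped, at -0.13 to 0.31 for NNK and -0.34 to 0.56 for LPS/NNK, and so did 7 of 8 dendritic cell markers, at -1.36 to -1.21 and -1.28 to -0.63. Lung epithelial markers were 5.69 to 5.83 for NNK and 5.17 to 5.26 for LPS/NNK, and endothelial markers 4.15 to 4.54 and 3.58 to 4.08. The markers counted here were all above background in each group, save 1 T cell marker in the NNK and LPS/NNK groups and 1 dendritic marker in the treated groups. The part of any cell type in the levels of the PYHIN genes was not tested.

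**Figure D4:**
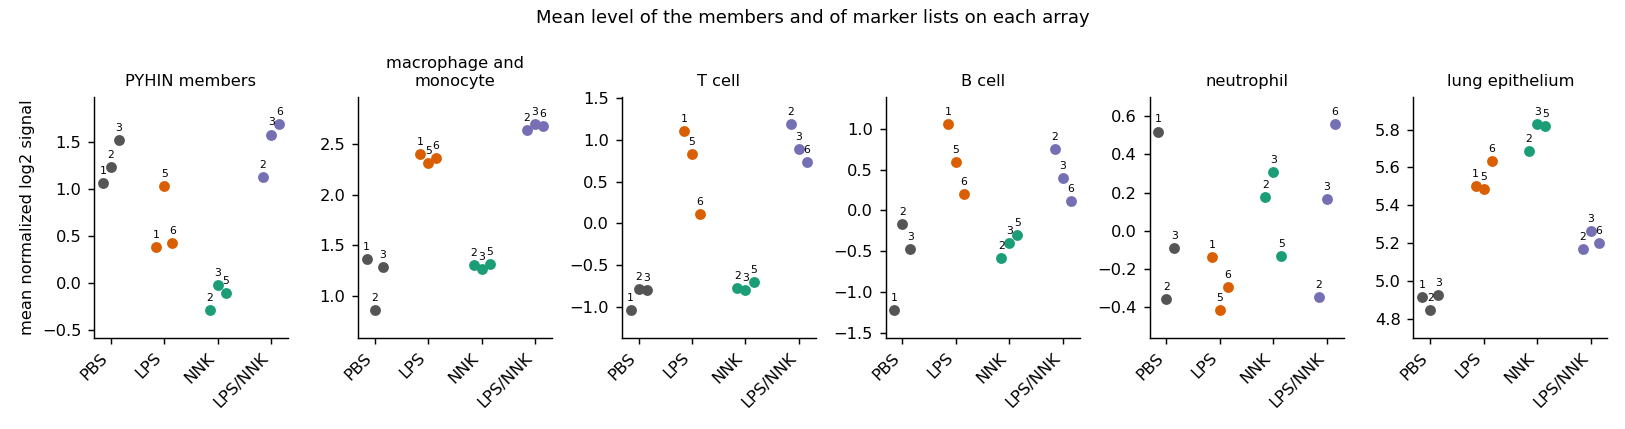
Mean normalized log2 signal (y axis, a separate scale for each panel) on each array by treatment group (x axis), for the 3 PYHIN members and 5 marker lists. Points are arrays with their replicate number. Macrophage and T cell markers are high in both LPS groups, whereas the PYHIN mean is lowest in NNK and overlaps between PBS and LPS/NNK.

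Across the 9 treated arrays, in which the members rise and fall with treatment, Ifi205 correlated with Pyhin1 at r = 0.94 (rho = 0.95) and with Ifi204 at r = 0.93 (rho = 0.90), and Ifi204 with Pyhin1 at r = 0.85 (rho = 0.77). Without the 2 arrays farthest from the median, r was 0.97, 0.79 and 0.84. These are descriptions over arrays that share the group structure, and cross-hybridisation between near-identical family transcripts could not be checked, since probe sequences were not used here. Of 13642 named genes outside the family, those whose levels over the 9 arrays most resembled the mean of the members were Hcst (r = 0.984), which encodes a signalling adaptor of natural killer and T cells, Erp44 (0.982), a chaperone of the secretory route, Phf11a (0.977), Pdyn (0.976), which encodes prodynorphin, the actin regulator gene Twf2 (0.975) and Jaml (0.974), an adhesion molecule of leukocytes. Over all 12 arrays r for these 6 genes ran from 0.13 (Hcst) to 0.86 (Phf11a). Hcst rose by 1.55 (SE 0.27, adjusted p = 0.000720) in NNK against PBS, where the PYHIN members fell, while Phf11a fell by 0.82 (SE 0.29, adjusted p = 0.0297).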

How the data were processed

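Whole-lung RNA was measured on 12 Agilent arrays of design 14868. The deposited scanner files hold intensity values per spot, already background-subtracted by the authors' Agilent Feature Extraction 10.7.3.1, per the file headers. The deposited series table holds log2 values, and Partek is named in the submitters' processing notes. Here spots marked as outliers were left out, spots of a probe were averaged, and log2 intensity minus the 75th percentile of each array was used. The same calculation with outlier spots kept in matched the deposited table to within 0.000176. Probes were named through RefSeq accessions (24355 of 41137 matched). A probe was kept (28331 were) if all 3 arrays of some group had it well above background, and the probe with the highest mean stood for its gene. One limma 3.58.1 fit (R 4.3.3) over all 12 arrays gave 2-sided moderated tests, Benjamini-Hochberg adjusted over 21853 items, and was tested on simulated data. A probe above background on no array of a group has only a bound there. Normexp used the median spot signal in place of the mean, which the files do not give.

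The members and lists were chosen with earlier results of these data known. Named genes were all members and their probes, other PYHIN genes, up to 4 genes of a list with the smallest p in a comparison (and all of 5 or fewer), and the 6 genes most like the family. The number of arrays limits the precision. Alternatives covered background, scaling, filter, probe choice, fitted groups, slide, replicate number and each array left out. Figures were drawn with matplotlib 3.10.9. Some genes of the lists are not reported here by name.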

Additional observations from a re-analysis of the deposited data

Results flagged for a closer look

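All 3 tested members are listed because the difference after LPS in NNK-treated mice was unlike that in PBS mice, with an interaction of 3.02 for Ifi205 (SE 0.44), 2.03 for Ifi204 (SE 0.35) and 1.72 for Pyhin1 (SE 0.35). The interaction contains the comparison in which the family was first noticed, so these values are a description, with no p, and 20.1% of all items had an interaction called in this direction. None of the 3 was called after normexp background correction, where 51 items were called.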

How the results depend on the processing

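The calls of NNK against PBS held in every alternative run for Ifi205 and Ifi204, and for Pyhin1 in all but normexp correction. Of the 3 members, LPS against PBS called 1 in the fit described and 2 after quantile normalization, with the mean of a gene's probes and with the replicate block. LPS/NNK against PBS called 0, but 1 after quantile or cyclic loess normalization and with the mean of probes, and 0 to 1 with an array left out. LPS/NNK against NNK called 3, and 1 after normexp. In that comparison the Ifi204 call was also lost in the other settings given above, such as quantile normalization, no filter and only the groups compared. It was lost too with any NNK array, LPS/NNK 3 or LPS/NNK 6 left out. LPS/NNK against LPS called 1, but 0 after normexp, quantile normalization, no filter, the mean of probes, only the groups compared, slide as a random block and PBS 3 alone, and 0 to 2 with an array left out. LPS against NNK called 1, but 0 after normexp, no filter, the replicate block and PBS 3 alone, 2 after quantile or cyclic loess normalization, the filter on all 12 arrays and slide as a random block, and 0 to 2 with an array left out. The interaction called 3, and 0 after normexp. Pyhin1 in LPS against PBS turned from -0.18 to 0.056 after normexp, which moved the median over all items to 0.33 there, to 0.55 in NNK against PBS and to -0.18 in LPS/NNK against NNK. Of the 6 genes most like the family, 0 were shared over all 12 arrays and 0 after normexp. In the gene lists, normexp left 1 of 12 inflammasome genes, 0 of 11 cGAS-STING genes, 3 of 24 other sensors and 3 of 11 nucleases higher in LPS/NNK against NNK, and 4 inflammasome genes and 3 other sensors lower in NNK against PBS; with PBS 3 alone the last 2 counts were 2 and 1. Other sensors higher in LPS/NNK against NNK were 3 without the filter and with only the groups compared, interferon signal genes 2 with the mean of probes, and cGAS-STING genes 3 with slide as a random block. In NNK against PBS, cGAS-STING genes higher were 3 after cyclic loess or without the filter and 2 with slide as a fixed effect, and 14 chromosome 1 neighbours were higher without the filter. The causes were not tested. Same-numbered arrays deviated together at r from -0.15 to 0.41. Without pairs of unlike number beside it, that range cannot decide whether the numbers pair the samples. The replicate block left NNK against PBS at 3 called and LPS/NNK against NNK at 3. For single members 330 differences kept their direction and side of the threshold, 13 gained a call, 37 lost one and 1 turned.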
